A study of Mus musculus with 14 samples.

Results

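The muscle ubiquitin system was followed through 7 genes in the hearts of female mice with mitochondrial cardiomyopathy. They are the ubiquitin ligase genes Fbxo32, Trim63, Trim54, Trim55 and Fbxo40, and Foxo1 and Foxo3, whose products regulate such ligases. The 7 genes were taken by name from a list whose rule uses no measured value, although the list was drawn up with earlier results of these data known. All 7 were present in both count tables among 42396 listed gene entries. All 7 also passed the filter on low counts in both experiments.

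Striated muscle breaks down its own contractile and regulatory proteins by tagging them with ubiquitin, after which the proteasome degrades them. Ubiquitin ligases choose the substrate, and Fbxo32 and Trim63 are the classical ligase genes of muscle atrophy. Their transcription is driven by the FoxO factors, which insulin and AKT signaling holds out of the nucleus, and in the heart the same ligases also turn over sarcomere proteins and have been linked to remodelling.

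All 14 heart samples were labelled or described as FS6KD, a gene-trap knockdown of Ndufs6, a subunit of respiratory complex I, on a mixed C57BL/6J and 129/Ola background. The knockout experiment set 4 Atf3-/-FS6KD hearts against 4 Atf3+/+FS6KD hearts, all collected at 12 weeks. The Atf3 deletion, which spans exons 2 to 4, was made by CRISPR-Cas9 in FS6KD zygotes, and founders were intercrossed, so the deletion was not restricted to cardiomyocytes. Atf3 encodes a stress-induced transcription factor. In the AAV experiment, 3 heart samples had the label MyoAAV2-shCtrl and 3 the label MyoAAV2-shAtf3. The vector, an adeno-associated virus with a muscle-seeking capsid, was given to neonatal mice to deliver a hairpin RNA against Atf3 or a control hairpin. The age at collection in this experiment is given only as 12 weeks without saying from which event. The comparisons ask whether loss of Atf3 changed the expression of the 7 genes in hearts with the Ndufs6 knockdown.

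Depth ranged from 33914931 to 134920825 counts per library in the knockout experiment, where replicates 3 and 4 of both genotypes were sequenced more deeply, and from 30085432 to 40534913 in the AAV experiment. Atf3 itself was not lower in the libraries labelled as lacking it. It ranged from 6.36 to 25.8 CPM (the count scaled to the library's effective total) in Atf3+/+FS6KD and from 14.3 to 37.6 in Atf3-/-FS6KD libraries, but the gene-level count includes exons outside the deletion and therefore cannot check it. Ndufs6 stood at 2.34 to 3.79 CPM in all 14 libraries, with no library of normal Ndufs6 beside it. In the AAV experiment Atf3 ranged from 10.1 to 14.1 CPM under the label shCtrl and from 12.1 to 21.2 under the label shAtf3. The columns assigned to the shCtrl label were moreover named for Atf3, and those assigned to the shAtf3 label were named as controls. AAV directions below follow the labels, and every AAV sign would turn if the column names were right. Heart identity was clear in all libraries, since the 8 cardiomyocyte markers (Myh6, Ttn and others) summed to 51694 to 75727 CPM, whereas 8 skeletal muscle genes summed to between 1.24 and 2.92 CPM.

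The 7 genes lie on different chromosomes apart from Foxo1 and Trim55, which share chromosome 3. In GRCm38 coordinates from the GENCODE annotation, Fbxo32 lies at chr15:58175879-58214932 on the minus strand, Trim63 at chr4:134315120-134329629 on the plus strand and Trim54 at chr5:31116712-31137630 on the plus strand. Trim55 lies at chr3:19644474-19692421 on the plus strand and Fbxo40 at chr16:36963460-36990467 on the minus strand. Foxo1 lies at chr3:52268336-52353221 on the plus strand and Foxo3 at chr10:42181841-42276755 on the minus strand. Of the 7, 3 share exonic bases with an antisense gene. These are Fbxo32 with Gm15943 (437 bases), Trim54 with Gm15469 (475 bases) and Foxo1 with Gm20402 (988 bases). The libraries were stranded, but the sources used here do not say whether counting used the strand, so reads of these pairs cannot be told apart with certainty. Values of Trim54 and Gm15469 were not whole in the same libraries, such as 7724.5 and 1984.5 in Atf3+/+FS6KD replicate 1. In all other libraries both were whole. Whether the pair shared reads was not tested. Fbxo32 was also listed a second time, under the same symbol with an added number, and the ratio of both entries' values lay between 0.99996 and 1.00002 in all 14 libraries. Fbxo32 values below are therefore those of 1 of 2 equal entries unless stated otherwise, and their sum was taken as its full count. Whether the entries divide its reads or hold the same reads was not tested.

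Promoter sequence from RefSeq (GRCm38.p6) was found for 5 of the 7 genes, in windows of 250 bases before the start site, and the 2 windows that held a searched FoxO or AP-1 motif are printed with it in capitals. The Trim63 window is chr4:134314870-134315119 and the Trim54 window is chr5:31116362-31116611, both on the plus strand, and RefSeq and GENCODE place the Trim54 start at different bases. Trim63 is shown because it carries the FoxO 8-mer TTGTTTAC, which includes the core GTAAACA read on the other strand. Trim54 is shown because it carries the AP-1 element TGAGTCA, a motif of the family of leucine-zipper factors to which Atf3 belongs.
Trim63: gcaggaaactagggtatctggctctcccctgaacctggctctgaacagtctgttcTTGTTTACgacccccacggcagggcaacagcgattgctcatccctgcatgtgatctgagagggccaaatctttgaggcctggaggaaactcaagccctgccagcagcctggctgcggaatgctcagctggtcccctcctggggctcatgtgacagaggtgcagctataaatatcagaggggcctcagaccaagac
Trim54: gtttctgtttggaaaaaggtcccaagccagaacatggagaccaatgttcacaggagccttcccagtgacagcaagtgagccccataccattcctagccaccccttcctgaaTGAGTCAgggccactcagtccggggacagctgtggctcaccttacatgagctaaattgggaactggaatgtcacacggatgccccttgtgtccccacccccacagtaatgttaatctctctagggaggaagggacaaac
The FoxO 8-mer started 195 bases before the Trim63 start site. It was present, on either strand, in 1.07% of 32851 mouse promoters of the same length, and the 7-base core was in 3.17%. The AP-1 element TGACTCA or its complement started 139 bases before the Trim54 start, and 4.46% of all promoters held it. No window of the 5 genes held the CRE element TGACGTCA, found in 1.55% of promoters, or the palindromic glucocorticoid element, found in 0.00913%. E-boxes (CANNTG), bound by muscle regulatory factors among others, were in 66.2% of all promoters and occurred in the windows of Trim63, Trim54, Fbxo40 and Foxo1. The glucocorticoid element was searched as an exact match only, so its absence holds for exact matches. Beside its FoxO 8-mer, the Trim63 window holds letters that match this element at all but its first base. A match describes letters in these windows, not binding.

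Compared per kb of exonic length, so that genes of different length can be set side by side, the ligase Trim54 had the highest level and Foxo1 the lowest. Trim54 encodes MuRF3, a ligase that associates with microtubules and the sarcomere, and it had group means of 131.5 to 145.5 CPM per kb. Trim63 encodes MuRF1, a titin-binding ligase of the M-line, and followed with group means of 80.7 to 95.8 CPM per kb. Fbxo40, a muscle-restricted F-box gene whose product targets the insulin receptor substrate IRS1, had group means of 76.7 to 81.0 CPM per kb. The libraries of Trim63 and Fbxo40 did not overlap only in Atf3+/+FS6KD, and there Trim63 lay barely above, with its lowest library at 82.3 against a highest Fbxo40 library at 81.4 CPM per kb. These 2 neighbours therefore did not differ beyond their spread in the other 3 groups.

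Lower in the order came Trim55, which encodes MuRF2, with group means of 42.2 to 51.5 CPM per kb. Fbxo32, whose product atrogin-1 is the substrate receptor of an SCF ligase, had group means of 27.8 to 35.4 CPM per kb when both entries were summed. With a single entry they were 13.9 to 17.7, which lies within the group means of Foxo3, so its place above Foxo3 rests on the sum. The ranges of Trim55 and Fbxo32 overlapped only under the label shCtrl, where Fbxo32 reached 42.0 in replicate 3 and Trim55 went down to 41.8 CPM per kb in replicate 2. Within each of the 14 libraries Trim55 was the higher, most narrowly in shCtrl replicate 3 (42.2 against 42.0). Foxo3 had group means of 13.5 to 20.7 CPM per kb and Foxo1 3.36 to 3.82, so Foxo3 was the more abundant of the 2 FoxO genes in every group. Both experiments were normalised apart, so these orders hold within a group. The lengths are the union of annotated exons, from 1436 bases for Trim54 to 8665 for Foxo1. No other neighbours in the order overlapped in any group.

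**Figure D1:**
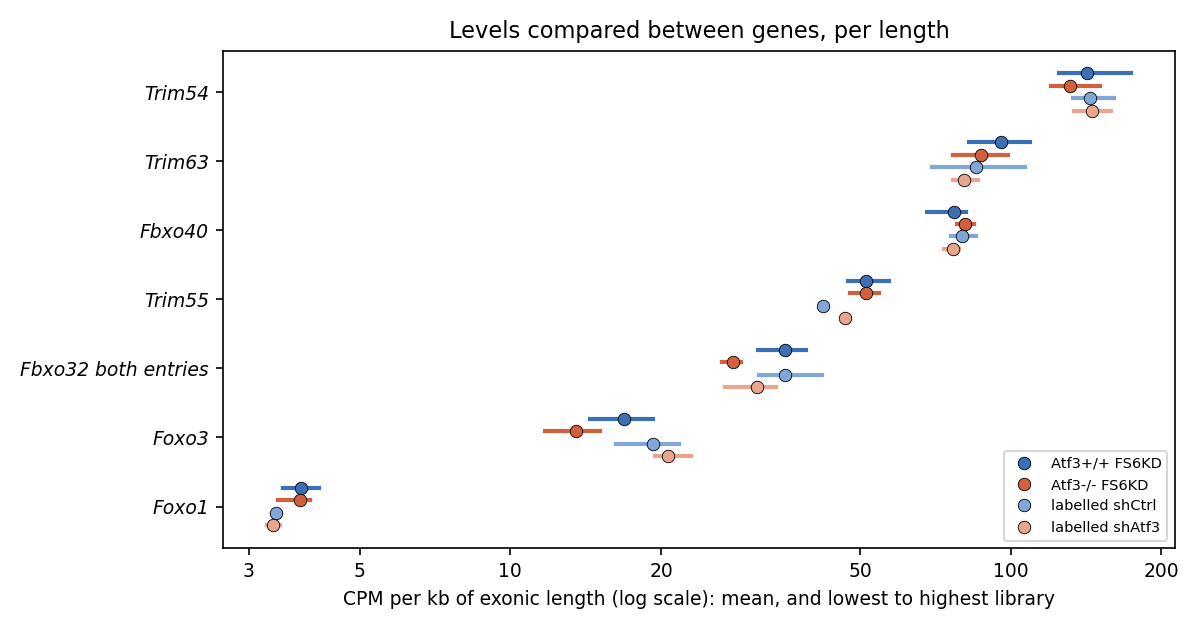
Level of each gene in CPM per kb of exonic length, on a log axis, with 1 row per gene; points are group means and lines run from the lowest to the highest library of a group (4 libraries in each knockout group, 3 in each AAV group). Trim54 sits at the right between 120.4 and 174.2, Trim63 and Fbxo40 overlap in 3 of 4 groups, and Foxo1 sits at the left between 3.26 and 4.14.

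In the knockout comparison, none of the 7 genes passed the adjusted test of edgeR's quasi-likelihood fit (Benjamini-Hochberg adjusted p under 0.05 over all genes), and neither did any other of the 15592 genes tested, a background of 0%. Of the 7, 5 had lower and 2 had higher fitted values in Atf3-/-FS6KD, although the split was 4 to 3 when libraries were scaled to library size alone or to cardiomyocyte markers, and 6 to 1 with DESeq2 size factors. The median log2 fold change of the 7 was -0.11, beside 0.0005 over all genes tested. Fbxo32 and Foxo3, 2 of the 7, had an unadjusted p under 0.05, and 10.1% of all genes did. Fbxo32 was also the only member whose groups did not overlap, which was the case for 5.71% of all genes. DESeq2, a second count model, called Fbxo32 alone among the 7, and 1.33% of all genes.

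Fbxo32 showed the largest difference of the 7. The rank was not stable, since Foxo3 had the larger log2 fold change without Atf3+/+FS6KD replicate 1 (-0.39 against -0.30). The same held without Atf3-/-FS6KD replicate 2 or replicate 4. The Fbxo32 level was 136.1, 115.3, 133.2 and 109.2 CPM in replicates 1 to 4 of Atf3+/+FS6KD and 98.3, 100.6, 92.3 and 96.9 CPM in those of Atf3-/-FS6KD. Every knockout library lay below every wild-type library, and the knockout libraries were also closer to each other. The mean of 123.4 ± 13.2 CPM (SD, n = 4) in wild type compared with 97.0 ± 3.52 CPM (SD, n = 4) in the knockout. The fitted log2 fold change was -0.35 (SE 0.079, 95% confidence interval -0.53 to -0.17; edgeR adjusted p = 0.277), a change of -21.4%. Its unadjusted p was 0.00162. DESeq2 gave the same fold change of -0.35 with an adjusted p of 0.0100.

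The Fbxo32 difference was as large within each depth of sequencing, at -0.34 in replicates 1 and 2 and -0.36 in the deeper replicates 3 and 4. Leaving out any of the 8 libraries kept it between -0.40 and -0.30. Scaling to the cardiomyocyte markers moved it to -0.23 and its edgeR adjusted p to 0.641, and the same scaling moved the median of all genes from 0.0005 to 0.12. The sum of those 8 markers ranged from 62185 to 75727 CPM in Atf3+/+FS6KD and from 51694 to 69595 CPM in Atf3-/-FS6KD. Their part in the Fbxo32 difference was not tested, since the scaling to them moved all genes. Fewer cardiomyocytes and less RNA per cardiomyocyte cannot be told apart in bulk hearts.

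Foxo3, the FoxO factor best known for switching on Fbxo32 in muscle, had the second largest value. Replicates 1 to 4 of Atf3+/+FS6KD held 109.1, 143.9, 146.2 and 112.4 CPM of it, and those of Atf3-/-FS6KD held 88.9, 114.2, 92.8 and 113.9 CPM. The wild-type libraries split into a higher and a lower pair, and the lower pair lay beside the upper pair of knockout libraries, so the groups overlapped. The fitted log2 fold change came to -0.32 (SE 0.127, 95% confidence interval -0.61 to -0.03; edgeR adjusted p = 0.458), and DESeq2 gave an adjusted p of 0.273. The unadjusted p of 0.0323 rose to at least 0.05 in 8 of 21 alternative analyses, among them those without Atf3+/+FS6KD replicate 2 (log2 fold change -0.26) or replicate 3 (-0.25), or without Atf3-/-FS6KD replicate 1 (-0.26) or replicate 3 (-0.28). Foxo1, the other FoxO gene of the set, had 33.1 ± 2.37 CPM (SD, n = 4) in Atf3+/+FS6KD and 32.9 ± 2.19 CPM (SD, n = 4) in Atf3-/-FS6KD. The 95% interval of its log2 fold change, -0.17 to 0.16, corresponds to a difference between -11.2% and 11.4%.

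Among the MuRF genes, Trim63 had the largest difference in mean, but its groups overlapped. Atf3+/+FS6KD replicates 1 to 4 held 311.1, 300.3, 243.5 and 234.0 CPM, and the Atf3-/-FS6KD hearts held 251.4, 241.7, 217.6 and 280.7 CPM. The fitted log2 fold change came to -0.14 (SE 0.113, 95% confidence interval -0.39 to 0.12; edgeR adjusted p = 0.705). It was -0.31 within replicates 1 and 2 and 0.06 within replicates 3 and 4, so its direction turned between the shallow and the deep libraries. Trim54 went from 203.4 ± 32.3 to 188.8 ± 20.2 CPM (SD, n = 4 each; edgeR adjusted p = 0.777). Trim55 had means of 136.7 and 136.9 CPM, and its log2 fold change of 0.0016 had a 95% interval of -0.16 to 0.17. Fbxo40 had means of 424.2 ± 34.7 and 446.7 ± 17.0 CPM (SD, n = 4 each) and a log2 fold change of 0.07 (edgeR adjusted p = 0.734), which was 0.019 without Atf3+/+FS6KD replicate 2 and 0.19 under scaling to 8 cardiomyocyte markers. That scaling moved the median of all genes to 0.12.

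**Figure D2:**
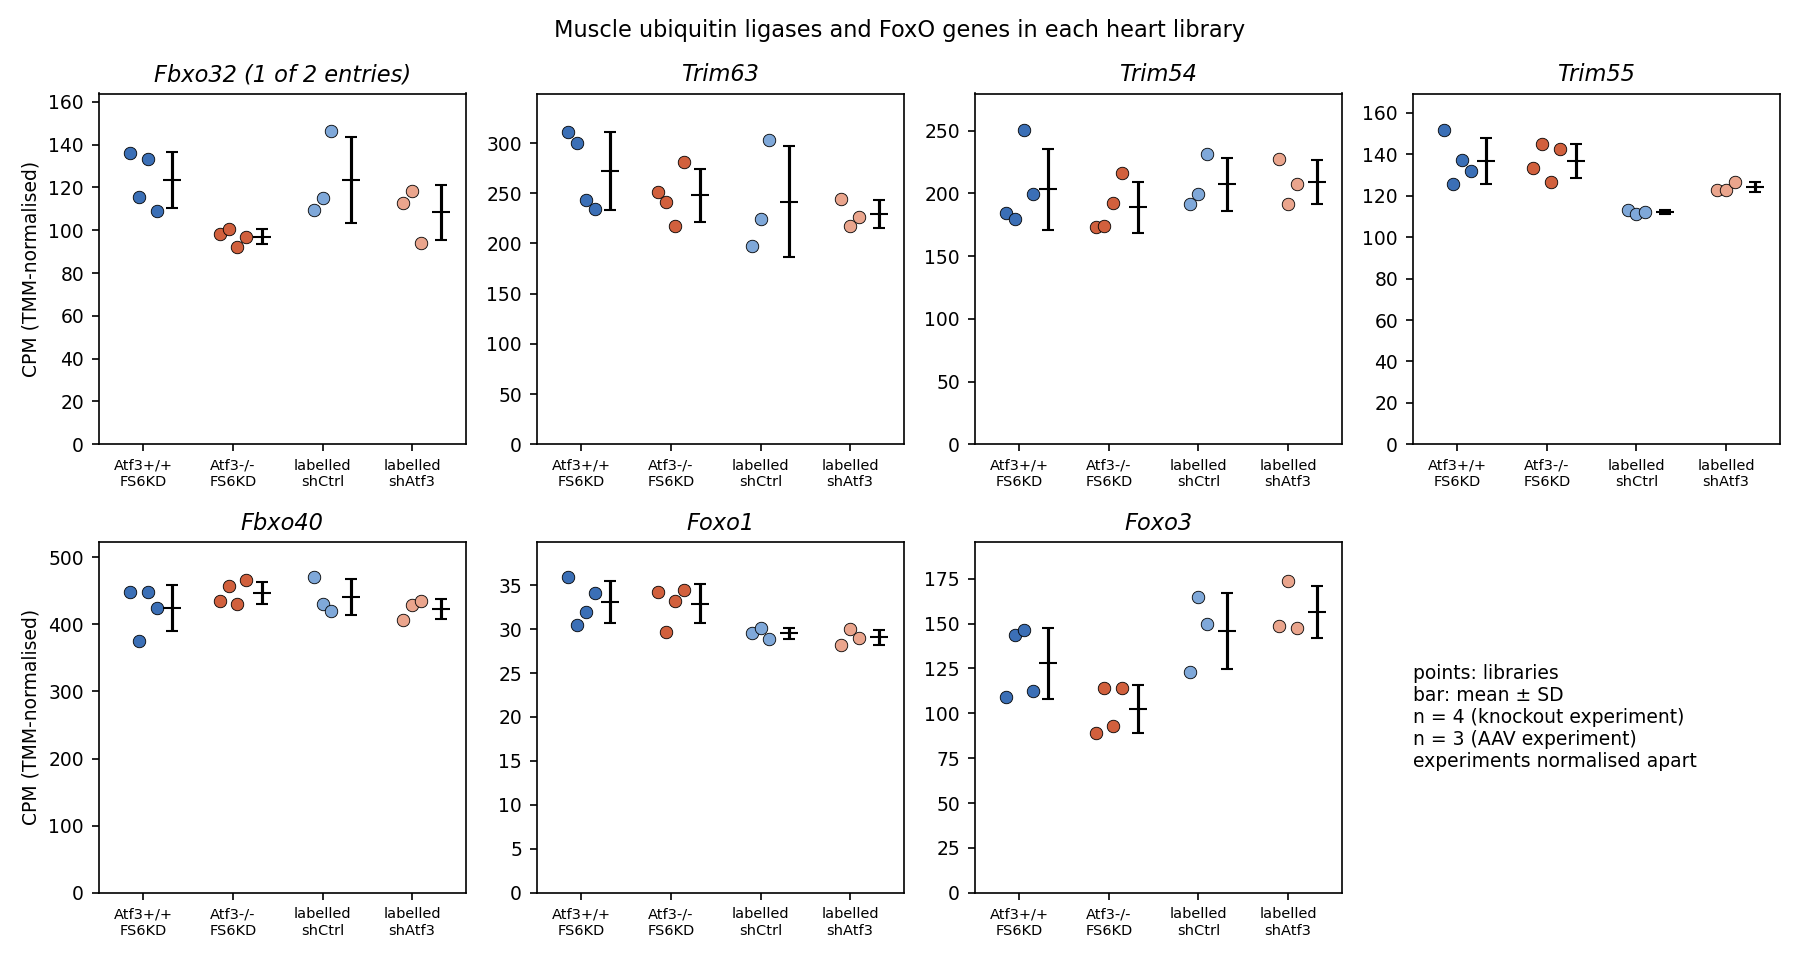
Level of each of the 7 genes in TMM-normalised CPM, with 1 point per library and black bars for the mean ± SD of a group (n = 4 in the knockout experiment, n = 3 in the AAV experiment); axes start at 0. Fbxo32 in Atf3-/-FS6KD lies between 92.3 and 100.6, below all Atf3+/+FS6KD libraries, and Trim55 under the label shAtf3 lies between 122.9 and 126.8, above the 111.2 to 113.4 under the label shCtrl.

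In the AAV comparison, no member passed edgeR's adjusted test. Of 15225 genes tested, 82 (0.539%) did, 13 of them higher and 69 lower under the label shAtf3. DESeq2 called none of the 7 and 2.02% of all genes. Of the 7, 4 had lower and 3 had higher fitted values, and the split was 5 to 2 under library-size and cardiomyocyte-marker scaling. The median log2 fold change was -0.02, beside -0.003 over all genes. Trim55 alone had an unadjusted p under 0.05, against 12.7% of all genes, and it alone had groups that did not overlap, against 18.4% of all genes.

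Trim55 was measured at 113.4, 111.2 and 112.2 CPM in replicates 1 to 3 under the label shCtrl and at 122.9, 122.9 and 126.8 CPM under the label shAtf3. The replicates of each label were within a few CPM of each other, and the 2 sets were well apart. The fitted log2 fold change came to 0.15 (SE 0.053, 95% confidence interval 0.03 to 0.27; edgeR adjusted p = 0.305), and the unadjusted p was 0.0224. The value moved with scaling, as did the median over all genes, which was -0.003 as reported. With library size alone Trim55 came to 0.11 and the median to -0.04. With libraries scaled to the cardiomyocyte markers they came to 0.04 and -0.11. All 8 markers had higher fitted values under the label shAtf3 (4 of 8 under their own scaling), with a median change of 0.11 on the log2 scale. Their summed level was 57504 to 65604 CPM under the label shCtrl and 63106 to 68035 CPM under the label shAtf3. Their part in the Trim55 value was not tested, since the scaling to them also moved the median of all genes.

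Fbxo32 had the largest fold change of the 7 in size, without passing a test, and by the labels it was lower. Its level was 109.3, 115.0 and 146.3 CPM under the label shCtrl and 113.0, 118.2 and 93.8 CPM under the label shAtf3. The groups overlapped, and the largest and smallest values were each replicate 3 of their group. The fitted log2 fold change came to -0.19 (SE 0.122, 95% confidence interval -0.46 to 0.09; edgeR adjusted p = 0.563). It was -0.05 without shCtrl replicate 3 and -0.10 without shAtf3 replicate 3.

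For Trim63 too, shCtrl replicate 3 stood highest. The gene was measured at 197.4, 224.3 and 303.4 CPM under the label shCtrl and at 244.4, 217.7 and 225.9 CPM under the label shAtf3. Its log2 fold change of -0.08 (SE 0.138; edgeR adjusted p = 0.873) became 0.12 without shCtrl replicate 3, the library with the highest Trim63 and Fbxo32 levels. Foxo3 was measured at 123.0, 164.6 and 149.8 CPM under shCtrl and at 148.6, 173.4 and 147.4 CPM under shAtf3. The fitted log2 fold change of 0.10 (SE 0.109; edgeR adjusted p = 0.759) came to -0.007 without shCtrl replicate 1. The other 3 members lay closer to 0, with log2 fold changes of -0.06 for Fbxo40, -0.02 for Foxo1 and 0.01 for Trim54 (edgeR adjusted p = 0.779, 0.922 and 0.973).

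The 2 comparisons share no library, and their difference was tested in a single fit of all 14 libraries. None of the 7 genes passed the adjusted test, which 0.166% of 15708 genes did. Foxo3 alone had an unadjusted p under 0.05, as 17.0% of all genes did. In 9 of 19 alternative analyses that p was at least 0.05. The Foxo3 change in the knockout comparison was lower than that in the AAV comparison by a log2 difference of -0.42 (SE 0.190, 95% confidence interval -0.83 to -0.02; edgeR adjusted p = 0.275). The Fbxo32 changes differed by -0.16 (95% confidence interval -0.50 to 0.18; edgeR adjusted p = 0.654) by the labels. The Fbxo32 difference was -0.06 with library size alone and ran from -0.31 without shCtrl replicate 3 to -0.08 without shCtrl replicate 1 when 1 library was left out. For Trim55 the difference was -0.15 (edgeR adjusted p = 0.448). These differences rest on the AAV labels. With the AAV signs turned as the column names would have it, an alternative added after seeing the data, the difference was -0.54 for Fbxo32 (SE 0.157; 95% confidence interval -0.87 to -0.20), -0.21 for Foxo3 and 0.15 for Trim55. The unadjusted p of Fbxo32 was then 0.0044, and it alone of the 7 was under 0.05, as 4.14% of all genes were, while the share of all genes passing the adjusted test was 0%.

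**Figure D3:**
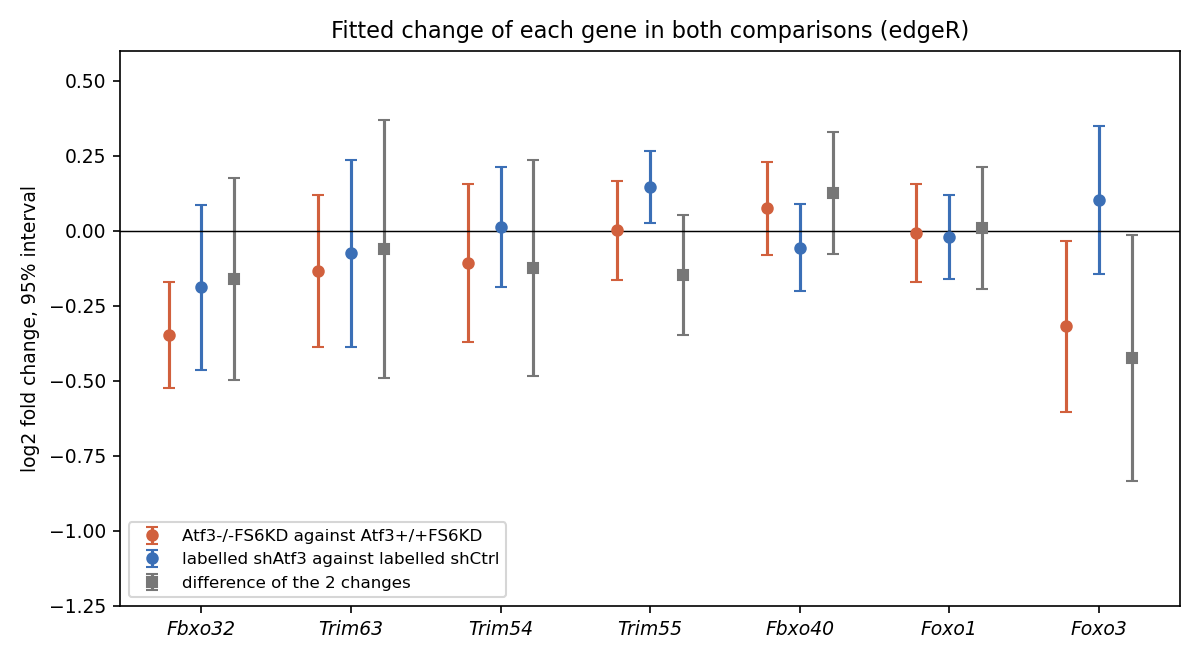
Fitted log2 fold change of each gene with its 95% confidence interval from edgeR, for the knockout comparison, the AAV comparison (by label) and the difference between them. The interval excludes 0 for Fbxo32 and Foxo3 in the knockout comparison, for Trim55 in the AAV comparison and for Foxo3 in the difference; no adjusted p was under 0.05.

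The values of the 7 genes were next recomputed under 21 alternatives in the knockout comparison and 16 in the AAV comparison. In the knockout comparison, Fbxo32 stayed between -0.40 and -0.23 and Foxo3 between -0.39 and -0.20 in all 21. Fbxo32 passed the adjusted test in 1 of them, DESeq2, and the adjusted p over the 21 ranged from 0.0100 to 0.813. In the AAV comparison, Trim55 stayed between 0.04 and 0.16 with adjusted p between 0.276 and 0.857.

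**Figure D4:**
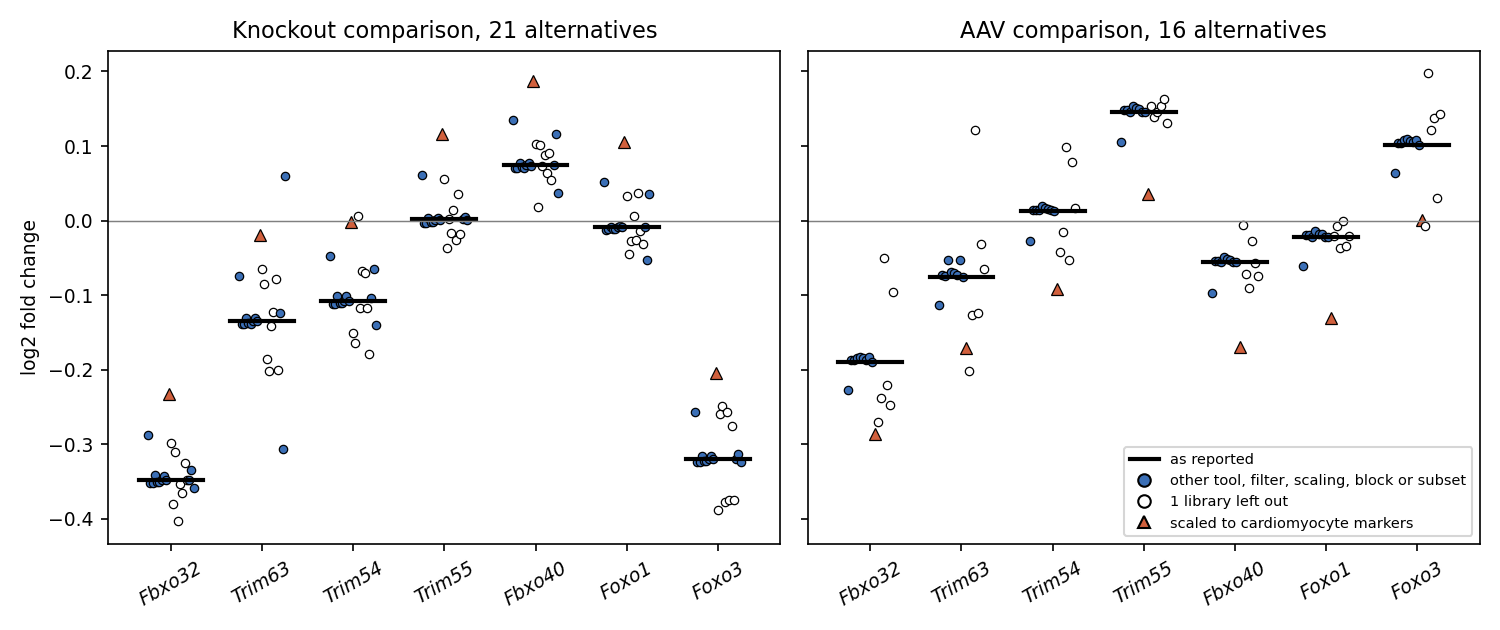
Log2 fold change of each gene as reported (black bar) and under every alternative analysis (points), with the knockout comparison on the left and the AAV comparison by label on the right; open points leave out 1 library and triangles scale libraries to 8 cardiomyocyte markers. Fbxo32 and Foxo3 on the left stay below 0 in all 21 alternatives, and Trim55 on the right stays above 0 in all 16.

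Around the 7 genes, the ubiquitin pathway was read through lists of related genes. Of 21 other muscle ubiquitin ligases tested in the knockout comparison, 16 had lower fitted values and none passed edgeR's adjusted test. Their median log2 fold change was -0.06. The smallest p values belonged to Nedd4, a ligase of membrane proteins with 710.8 ± 22.7 and 651.6 ± 13.9 CPM (log2 fold change -0.13), to Asb2, a filamin-degrading cullin adaptor (-0.34), and to Wwp1 (-0.10). Of 24 genes of ubiquitin activation, conjugation and the SCF complex, 19 had lower values, with a median of -0.05. Ube4b, which extends ubiquitin chains, went from 37.7 ± 0.677 to 29.8 ± 1.51 CPM (SD, n = 4 each) with groups that did not overlap. Its log2 fold change was -0.34, with an adjusted p of 0.248 by edgeR and 4.86e-05 by DESeq2. Vcp, the segregase that extracts tagged proteins, had -0.11 and the conjugating enzyme gene Ube2b -0.09. The splits of these 2 lists turned with the scaling, to 10 of 21 and 10 of 24 lower with library size alone and to 6 of 21 and 4 of 24 under scaling to cardiomyocyte markers. These scalings moved the median of all genes to 0.06 and 0.12 in the knockout comparison. In the AAV comparison they moved it to -0.04 and -0.11. The counts of higher and lower genes in these and the following lists moved the same way.

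In the AAV comparison edgeR called no gene of the same 2 lists either. Of the other muscle ligases, 15 of 21 had higher fitted values under the label shAtf3 (median 0.05), and of the ubiquitin machinery 16 of 24 (median 0.04). The higher counts were 13 of 21 and 12 of 24 with library size alone. Both turned to a majority lower, 15 of 21 and 20 of 24, under scaling to cardiomyocyte markers. Asb15, a muscle cullin adaptor, had means of 73.3 ± 4.88 and 86.2 ± 2.18 CPM (SD, n = 3 each), a log2 fold change of 0.23 (edgeR adjusted p = 0.199). Fbxo21 had a log2 fold change of 0.22 and the cullin gene Cul3 0.13. The activating enzyme gene Uba1 had 0.16, the deubiquitinase gene Usp2 0.27 and the RING subunit gene Rbx1 0.14.

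Upstream of the FoxO factors, 24 genes of insulin and AKT signaling were tested. In the knockout comparison 12 were higher and 12 lower, with a median of 0.01 and no called gene, but 17 were higher with library size alone and 18 under scaling to cardiomyocyte markers. By the AAV labels 15 were higher, 12 with library size alone and 7 under marker scaling. Pik3r1, the regulatory subunit of the kinase that activates AKT, had in the knockout comparison a log2 fold change of -0.29, the growth factor gene Igf1 0.43 and Mtor -0.30. Igf1 went there from 24.4 ± 4.43 to 33.0 ± 6.86 CPM (SD, n = 4 each). Under the label shAtf3 it was 29.9 ± 3.38 CPM against 39.8 ± 5.08 CPM (SD, n = 3 each) under shCtrl, with log2 fold change -0.41 and an adjusted p of 0.181 by edgeR and 0.0268 by DESeq2. In that comparison the adaptor gene Irs2 had 0.76 and Rictor, of the kinase complex that phosphorylates AKT, 0.20. Both genes are on the list of other FoxO targets too.

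Of 23 other FoxO target genes, 16 had lower fitted values in the knockout comparison (12 with library size alone, 10 under scaling to cardiomyocyte markers), with a median of -0.09, and no gene was called. Sesn1 had a log2 fold change of -0.19, the cell-cycle inhibitor gene Cdkn1a 0.65 and the insulin receptor gene Insr -0.17. In all, 13 of the 23 were lower in the AAV comparison, with a median of -0.01, and 16 with library size alone and 19 under marker scaling. There the mitochondrial superoxide dismutase gene Sod2 went from 669.5 ± 7.01 to 786.9 ± 12.3 CPM (SD, n = 3 each), with a log2 fold change of 0.23 and an adjusted p of 0.102 by edgeR and 0.00606 by DESeq2.

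Of 21 autophagy genes linked to FoxO, none was called by edgeR in either comparison, and the medians were -0.03 and -0.003. In the knockout comparison 8 were higher, 14 with library size alone and 21 under scaling to cardiomyocyte markers, and in the AAV comparison 10, 7 and 2. Under marker scaling the list's median was 0.09 in the knockout and -0.11 in the AAV comparison, beside 0.12 and -0.11 over all genes. Bnip3, a mitophagy receptor gene, had log2 fold changes of 0.21 in the knockout comparison (edgeR adjusted p = 0.476) and -0.33 in the AAV comparison (edgeR adjusted p = 0.0638, DESeq2 adjusted p = 0.000558). Map1lc3b had -0.11 and Atg5 0.09 in the knockout comparison, and Atg5 had 0.15 and Sqstm1 -0.15 in the AAV comparison. Of 18 tested genes of myostatin, glucocorticoid and inflammatory inputs, 10 were higher in the knockout comparison and 6 in the AAV comparison, with medians of 0.02 and -0.06. With library size alone the counts were 14 and 5, and under scaling to cardiomyocyte markers 15 and 2. Tnfrsf12a, the receptor of the atrophy-inducing cytokine TWEAK, went from 49.0 ± 15.4 to 80.3 ± 17.3 CPM (SD, n = 4 each), a log2 fold change of 0.71 (edgeR adjusted p = 0.392). Socs3 had 0.25 and Zbtb16, a glucocorticoid-responsive gene, -0.33 there, while the AAV comparison gave -0.58 and 0.35, and -0.12 for the cytokine receptor subunit gene Il6st.

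Of 26 genes for sarcomeric substrates and binding partners of the ligases, 22 in the knockout comparison had lower fitted values, with a median of -0.15. The count was 17 of 26 with library size alone and 15 of 26 under scaling to cardiomyocyte markers, while over all genes these scalings moved the median to 0.06 and 0.12. None was called by edgeR, while DESeq2 called Tnnt2, Actc1 and Ckmt2. Tnnt2, cardiac troponin T, went from 7745 ± 448.3 to 6025 ± 634.3 CPM (SD, n = 4 each), a log2 fold change of -0.36 (edgeR adjusted p = 0.277, DESeq2 adjusted p = 0.0100). Acta1, the skeletal actin gene re-expressed in stressed hearts, had 2329 ± 1065 and 1074 ± 70.6 CPM (SD, n = 4 each), a log2 fold change of -1.12 (edgeR adjusted p = 0.290). Actc1, the main cardiac actin, had a log2 fold change of 0.47 (edgeR adjusted p = 0.317). Of the 8 cardiomyocyte markers, 6 (Myh6, Tnnt2, Tnni3, Actc1, Myl2 and Ttn) are on this list too, so scaling to the markers centres it largely on its own genes. Of the 8 markers, 7 had lower values.

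In the AAV comparison 20 of 26 sarcomeric genes had higher values under the label shAtf3 (median 0.07), 17 of 26 with library size alone and 8 of 26 under scaling to cardiomyocyte markers. Myot, which encodes the Z-disc protein myotilin bound by MuRF ligases, was the only gene of all lists that edgeR called. It rose from 49.2 ± 2.91 to 69.4 ± 2.22 CPM (SD, n = 3 each), with a log2 fold change of 0.50 (SE 0.065; edgeR adjusted p = 0.0293). Among other alternatives, the call was lost without shCtrl replicate 2, without any of the 3 shAtf3 libraries, and in the fit of all 14 libraries. Myom2, an M-band gene, had -0.33 (edgeR adjusted p = 0.146, DESeq2 adjusted p = 0.00985) and Ckmt2, the mitochondrial creatine kinase, 0.20 (edgeR adjusted p = 0.161).

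**Figure D5:**
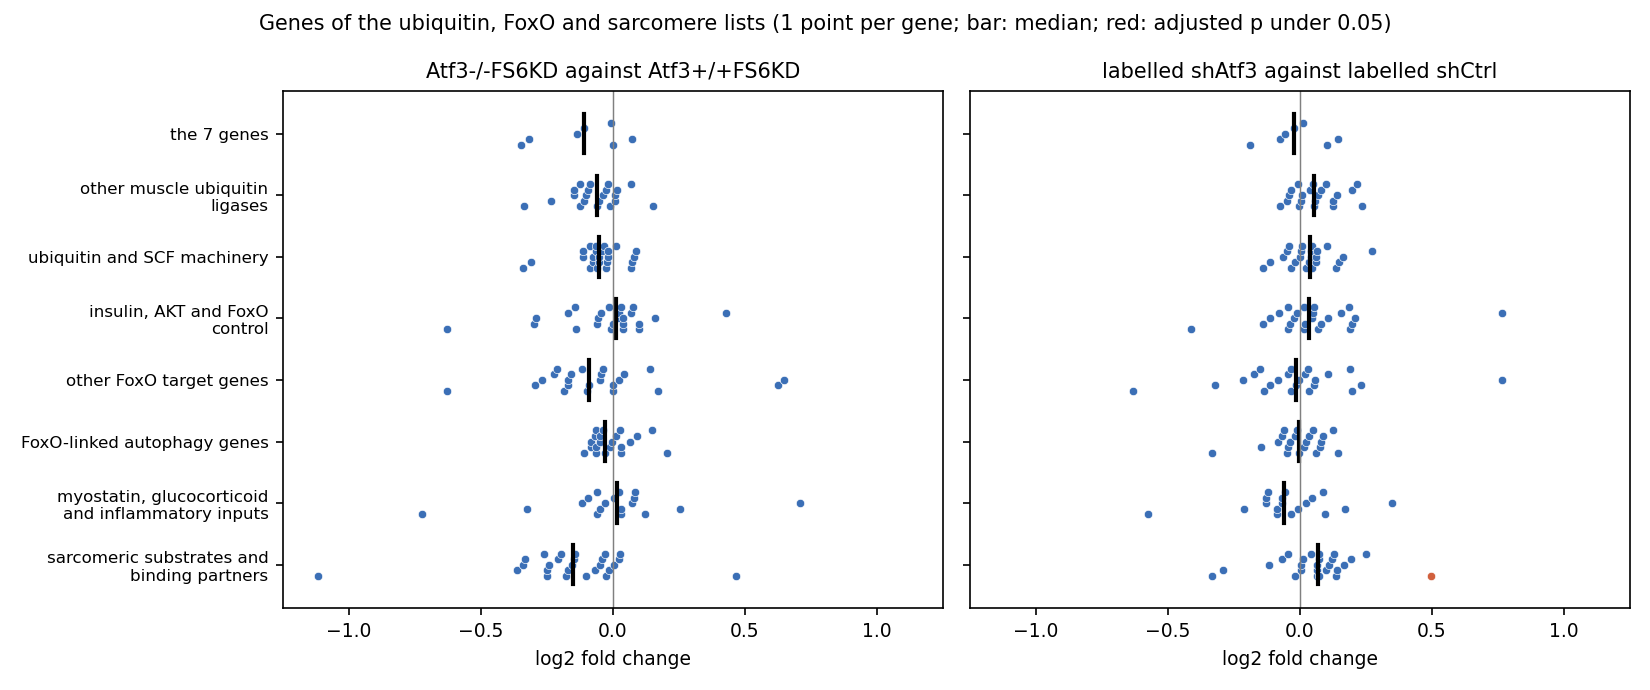
Log2 fold change of every tested gene of the 7-gene set and of 7 related lists, with 1 point per gene and a black bar at the list's median, in the knockout comparison (left) and in the AAV comparison by label (right); red marks an edgeR adjusted p under 0.05. The only red point is Myot at 0.50, and the sarcomeric list has medians of -0.15 and 0.07.

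Markers of other cell types were set beside these values, and their part in the values of the 7 genes was not tested. No marker passed edgeR's adjusted test in the knockout comparison, and the summed levels overlapped between genotypes for every cell type. All 8 fibroblast markers had higher fitted values in Atf3-/-FS6KD, 6 of them with an unadjusted p under 0.05 by edgeR (median log2 fold change 0.39; summed level 1697 to 2039 against 2015 to 2748 CPM). In the AAV comparison all 8 were lower under the label shAtf3 (median -0.67; 2341 to 3206 against 1742 to 1827 CPM), and 4 of them passed edgeR's adjusted test. Macrophage markers were higher for 6 of 7 genes in the knockout comparison and lower for 6 of 7 in the AAV comparison, where the summed level was 268.8 to 288.6 against 248.4 to 250.4 CPM. Endothelial markers were higher for 7 of 7 genes in the knockout and 5 of 7 in the AAV comparison, smooth muscle markers for 2 of 4 and 0 of 4, and erythrocyte markers for 0 of 5 and 5 of 5. Of 5 atrial markers 2 were tested, of which 1 was higher in the knockout and 0 in the AAV comparison (median -0.70). None of the markers of these 4 cell types passed edgeR's adjusted test in the AAV comparison, and their summed levels overlapped between the labels.

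Finally, the 7 genes were compared with each other and with all other genes across the 14 libraries, after group means had been removed. No pair among the 21 passed the permutation test adjusted over all pairs. The closest pair was Trim55 and Fbxo40, with Pearson's r = 0.73 (permutation p = 0.0197, adjusted 0.414) and Spearman's rho = 0.76 (permutation p = 0.00279, adjusted 0.0586) over the 14 libraries. Within experiments r was 0.81 (knockout) and 0.60 (AAV), and it was 0.56 without the 2 libraries farthest from the median of Trim55. For the classical pair Fbxo32 and Trim63, r was 0.59 (permutation p = 0.0969, adjusted 0.909) and rho 0.53 (permutation p = 0.116, adjusted 0.939), with 0.36 and 0.76 within experiments and 0.47 without the 2 libraries farthest from the median of Fbxo32. Fbxo32 and Foxo3 had r = 0.28 (permutation p = 0.402, adjusted 0.909) and Fbxo32 and Foxo1 r = -0.002 (permutation p = 0.994, adjusted 0.994).

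The genes most like each member over the same 14 libraries, among 10116 genes with a mean of at least 3 log2 CPM, were named as a description, since the libraries share their depth and composition and the number of candidates is large. For Fbxo32 they were Pgrmc2 (r = 0.91), Ifngr2 (0.87) and Stambp (0.87), and for Trim63 they were Inpp5k (0.96), Art5 (0.95) and Dhrs7c (0.95). For Trim54 the closest was Gm15469 (0.98), the antisense gene that shares 475 exonic bases with it and was itself listed at 46.4 to 72.6 CPM, followed by Cenpb (0.96) and Hcfc1r1 (0.93). Trim54 and Gm15469 may share reads, so their values may not be separate counts. Trim55 was most like Trim35 (0.90), Fbxo30 (0.89) and Smarcc1 (0.88), but within the AAV experiment the first 2 had r of 0.13 and -0.05. Fbxo40 was most like Pip4p2 (0.92), Lrrc42 (0.90) and 2410004B18Rik (0.87). Foxo1 was most like Ice1 (0.90), Pygo1 (0.88) and Exd2 (0.87), and Foxo3 was most like Lin52 (0.92), Max (0.91) and Fmo2 (0.90). None of these nearest genes is itself a member of the set.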

How the data were processed

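Bulk RNA-seq of 14 heart samples was analysed from the 2 tables the authors deposited. Libraries were stranded mRNA libraries, and the submitters' notes name GRCm38.p6 and featureCounts 2.0.0, while the aligner is not given in the sources used here. The deposited values are estimated counts per gene, neither normalised nor pooled, and 19.35% to 24.41% of a library's values were not whole, so they were rounded to whole counts. Each experiment was fitted alone with edgeR 4.0.16 (quasi-likelihood test, TMM scaling, genes above 1 CPM in at least 1 library) in R 4.3.3, with adjustment over all genes. DESeq2 1.42.0 and limma 3.58.1 served as alternatives, beside other scalings, filters, merged duplicate entries, a replicate block, depth batches and libraries left out. The functions were tested on simulated data. Samples were grouped by GEO titles; the study calls the knockout samples biological replicates, while for the AAV samples nothing says that they came from separate animals, so their p-values measure the spread between libraries only. The 7 genes and all lists were chosen with earlier results of these data known. The genes named from each list were the 3 with the smallest p in each comparison and any called, and from the genome the 3 most alike to each member. Lengths came from GENCODE M21 exons. Correlations used log2 CPM with a prior count of 2 and 100000 permutations within groups. Replicates differed by more than sampling noise (chi-square per gene 7.31 to 99.3), so each library was counted once; depth is given in the report, and counting intervals would cover counting error only.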

Additional observations from a re-analysis of the deposited data

How the results depend on the processing

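None of the 7 genes was called in 20 of 21 alternatives of the knockout comparison (1 under DESeq2, Fbxo32), in the 16 of the AAV comparison or in the 19 of their difference. Over all genes, the knockout comparison called 208 with DESeq2, 2 with no filter, 31 with all 14 libraries in 1 fit, 2 with cardiomyocyte-marker scaling, 8 within replicates 3 and 4 and 0 to 15 when 1 library was left out, with 15 reached on dropping replicate 1 of wild type or replicate 3 of the knockout. The AAV comparison called 308 with DESeq2, 304 with no filter, 1 with all 14 libraries in 1 fit, and 1 to 285 with 1 library left out, the most without shCtrl replicate 3; library size alone gave 7 higher and 88 lower calls, and marker scaling 4 and 98. List genes called numbered 4 (DESeq2) and 1 (14 libraries in 1 fit) in the knockout comparison, and in the AAV comparison 2 (library size alone), 5 (DESeq2), 5 (no filter), 0 (14 libraries in 1 fit) and 0 to 3 (1 library left out). The cause of these moves was not tested.

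With the replicate block, the knockout comparison called 0 genes and the AAV comparison 20, with 0 list genes, so Myot was not called. The replicate numbers were not taken to pair the samples, although in the knockout experiment they follow depth, since the same-number correlations were 0.241, 0.079, 0.0647 and 0.181 in the knockout and -0.0628, 0.236 and 0.0649 in the AAV experiment, and not every library was most like its own number.

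Signs turned for members whose 95% interval included 0. In the knockout comparison, Foxo1 came to 0.052 with library size alone, 0.11 with marker scaling and 0.036 within replicates 3 and 4, Trim63 to 0.060 within replicates 3 and 4, and Trim55 to -0.0026 with DESeq2 size factors, -0.0028 with DESeq2, -0.0014 with no filter and -0.0019 with edgeR's own filter. In the AAV comparison Trim54 came to -0.027 with library size alone and -0.092 with marker scaling, and the difference for Trim63 to 0.040 with library size alone. With 1 library left out, the knockout ranges were -0.045 to 0.037 for Foxo1, -0.18 to 0.0063 for Trim54 and -0.037 to 0.056 for Trim55. The AAV ranges were -0.0069 to 0.20 for Foxo3, -0.053 to 0.098 for Trim54 and -0.20 to 0.12 for Trim63, and those of the difference -0.26 to 0.065 for Trim63 and -0.027 to 0.057 for Foxo1. With the AAV signs turned, the difference came to 0.15 for Trim55 and -0.027 for Foxo1. Marker scaling and this turn were added after seeing the data; marker scaling moved the median of all genes to 0.12 (knockout) and -0.11 (AAV).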
